A study of Mus musculus with 4 samples.

Results

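The platelet-derived growth factor (PDGF) family was followed in mouse soleus muscle through its 4 ligand genes, Pdgfa, Pdgfb, Pdgfc and Pdgfd, and its 2 receptor genes, Pdgfra and Pdgfrb. These 6 genes were taken by symbol from the 24054 genes in the table of counts, and all 6 passed the filter on low counts that left 13652 genes for testing. The muscles came from female mdx mice, which lack full-length dystrophin because of a mutation in the Dmd gene. From 8 weeks of age, 2 mice had received mouse cardiosphere-derived cells (mCDCs) by monthly infusion into the femoral vein and 2 had received only the medium that carried the cells (vehicle), and the soleus was taken after 12 months. The mCDCs were stromal cells grown to passage 5 from the heart of a single female C57BL/10ScSn/J mouse, and all 4 recipients carried the mdx allele on that background, so no muscle with intact dystrophin was available for comparison. RNA-seq gave between 22481391 and 27187425 expected counts per library. Values are given as CPM, the counts scaled to a common library size, and a fold change is that of mCDC over vehicle muscles on the log2 scale.

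PDGFs are secreted dimers that act on receptor tyrosine kinases of mesenchymal cells. The A, B and C chains bind the receptor encoded by Pdgfra, and the B and D chains bind the receptor encoded by Pdgfrb. In blood vessels, endothelial cells release PDGF-B to hold pericytes, which carry the beta receptor. In skeletal muscle the alpha receptor marks fibro-adipogenic progenitors, the stromal cells that give rise to fibroblasts and fat in dystrophic muscle. PDGF-C and PDGF-D are made with an extra CUB domain and become active only once proteases have removed it.

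In mCDC muscles Pdgfb was the member with the higher level, and Pdgfd and Pdgfra were the members with lower levels, while Pdgfa, Pdgfc and Pdgfrb lay within 1.5-fold of vehicle muscles. The family was chosen by the mCDC-to-vehicle fold changes of these same libraries, so the values that follow are a description and no test is drawn from them. A gene was called where edgeR's quasi-likelihood test gave an unadjusted p under 0.05 and the levels differed by over 1.5-fold. By that rule 1 of the 6 members was called higher, where 1.26% of all tested genes were called higher, and 2 were called lower, where 2.74% were. Nothing is read from these counts. Over all 13652 genes, 0 had an adjusted p under 0.05 with that test, 947 had an unadjusted p under 0.05, and DESeq2, run on 18132 genes without that filter, gave 48 with an adjusted p under 0.05.

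The upstream sequences of Pdgfra and Pdgfd are shown because both genes were lower in the mCDC libraries, beside one of Pdgfa, whose level was high and even. Each is the stretch of 250 bases before an annotated RefSeq start on GRCm38.p6, the assembly of mm10, read along the gene's own strand. Capitals mark matches to any of the motifs searched on both strands. The TATA box was searched as TATAAA. The GC box was searched as GGGCGG. The E-box was searched as CANNTG, the AP-1 site as TGANTCA, and the CCAAT and CArG boxes by their own letters.
Pdgfra, chr5:75152001-75152250, plus strand: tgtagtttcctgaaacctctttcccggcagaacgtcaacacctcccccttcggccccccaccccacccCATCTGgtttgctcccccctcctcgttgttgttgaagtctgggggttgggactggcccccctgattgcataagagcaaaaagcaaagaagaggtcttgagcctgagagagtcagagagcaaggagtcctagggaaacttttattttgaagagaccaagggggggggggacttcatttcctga
Pdgfd, chr9:6168236-6168485, plus strand: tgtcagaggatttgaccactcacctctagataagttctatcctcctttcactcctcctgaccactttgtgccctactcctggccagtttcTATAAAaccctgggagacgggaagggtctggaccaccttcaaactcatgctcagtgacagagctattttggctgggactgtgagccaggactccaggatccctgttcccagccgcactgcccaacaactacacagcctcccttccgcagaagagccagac
Pdgfa, chr5:138994945-138995194, minus strand: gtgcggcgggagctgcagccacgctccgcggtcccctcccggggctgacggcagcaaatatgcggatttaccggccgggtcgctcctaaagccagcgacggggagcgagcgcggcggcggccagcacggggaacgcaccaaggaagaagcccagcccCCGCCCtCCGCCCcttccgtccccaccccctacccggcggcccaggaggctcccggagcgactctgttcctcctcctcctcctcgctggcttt

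The windows of Pdgfra and Pdgfd held 4 and 3 CpG dinucleotides, against a median of 6 in the 32841 windows of the same length before all annotated starts. The Pdgfa window held 28, and 72.4% of its bases were G or C, against a median of 52.4%. The Pdgfa window matched the GC box at 2 places, a motif found in 32.7% of all windows. The capitals in the Pdgfd window are a TATA box from 160 to 155 bases before the start, a motif in 12.4% of all windows. Those in the Pdgfra window are an E-box, which 66.2% of all windows hold. No motif searched was matched in both the Pdgfra and the Pdgfd window. Pdgfc, for which no sequence is printed, matched a CArG box 17 to 8 bases before its start, as did 1.5% of all windows. A match to letters is a description of the sequence and no evidence of a bound factor.

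Divided by the length of the longest annotated transcript, the 2 classical ligands had the highest levels of the family and the 2 CUB-domain ligands the lowest. Over the 4 libraries Pdgfb had 15 ± 8.1 CPM per kb (SD, n = 4) and Pdgfa 12.9 ± 1.2. These SDs span both groups. The means in mCDC and vehicle libraries were 20.2 and 9.79 for Pdgfb, and 14.0 and 11.9 for Pdgfa. Pdgfrb followed with 4.83 ± 1.18 CPM per kb and Pdgfra with 1.16 ± 0.50. Pdgfc stood at 0.304 ± 0.024 CPM per kb and Pdgfd at 0.269 ± 0.180. Pdgfb and Pdgfa overlapped in their libraries, as did Pdgfc and Pdgfd, so the order within each of these pairs is not resolved. By this length Pdgfrb and Pdgfra did not overlap with each other or with any ligand. By the mean length of the annotated transcripts the receptors overlapped, with Pdgfra from 1.90 to 4.72 and Pdgfrb from 3.50 to 6.32 CPM per kb, and both still lay between the ligand pairs.

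**Figure D1:**
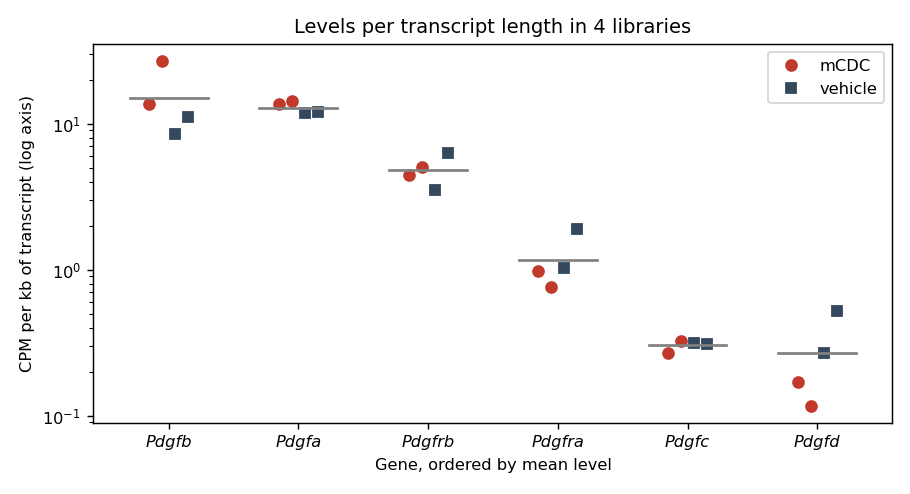
Levels of the 6 genes per kb of transcript on a log axis, with a point for each of the 4 libraries (circles, mCDC; squares, vehicle) and a grey line at their mean. Pdgfb and Pdgfa share the top of the scale, from 8.49 to 26.8 CPM per kb, and Pdgfc and Pdgfd share the bottom, from 0.117 to 0.523.

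On the same scale per length, 77.8% of tested genes lay below Pdgfb and 75.1% below Pdgfa. Pdgfrb was near the middle, with 54.7% of genes below it, and Pdgfra lower, with 27% below it. Pdgfc and Pdgfd were among the weakly detected genes, with 9.7% and 8.5% of tested genes below them. Within each library, Pdgfa and Pdgfb together made up between 96.5% and 98.9% of the summed ligand level per length. Pdgfb alone held 49.2% and 64.4% of it in the mCDC muscles (here and below, replicate 1 before replicate 2), against 40.6% and 46.4% in the vehicle muscles.

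Pdgfb encodes the B chain, the ligand that binds both receptors, and lies on chromosome 15 (79995874 to 80014977, minus strand; positions of genes are GENCODE M21 on GRCm38). Its level was 40.0 and 78.8 CPM in mCDC libraries, against 25.0 and 32.6 CPM in the vehicle libraries. Both mCDC libraries lay above both vehicle libraries, as in 19.2% of all tested genes, and mCDC replicate 2 stood well above the rest. Depth did not limit these values, since they rest on between 655 and 1724 counts. The log2 fold change was 1.04 (standard error 0.30), a 2.06-fold higher level. The ratio of an mCDC to a vehicle library ran from 1.23 to 3.15, depending on the pair taken, and the mCDC libraries themselves differed by 1.97-fold. Without mCDC replicate 2 the log2 fold change was 0.48, and the gene was no longer called. It was also not called without vehicle replicate 1, at 0.87.

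Pdgfa, on chromosome 5 (138976014 to 138997370, minus strand), encodes the A chain, which acts through the alpha receptor alone. Its level was 28.0 and 29.6 CPM in mCDC libraries, against 24.4 and 24.6 CPM in the vehicle libraries. The groups did not overlap, but neither do those of 19.2% of all tested genes in the same direction. Its log2 fold change was 0.23 (standard error 0.14), and it stayed between 0.19 and 0.27 when each library was left out in turn. Pdgfa was thus the steadiest ligand, with libraries of a group differing by at most 1.05-fold.

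Pdgfc encodes the C chain, which needs cleavage, classically by tissue plasminogen activator, before it binds the alpha receptor. It lies on chromosome 3 (81036416 to 81214040, plus strand). Its levels were 0.947 and 1.14 CPM in mCDC libraries, against 1.11 and 1.09 CPM in the vehicle libraries, from 25 to 30 counts each. The groups overlapped, and the log2 fold change was -0.08 (standard error 0.36). A count of 25 has an exact Poisson 95% interval of 16.2 to 36.9, which covers counting error only, so differences of the size seen for Pdgfa were not detectable for Pdgfc at this depth.

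Pdgfd encodes the D chain, which binds the beta receptor after cleavage and lies on chromosome 9 (6168584 to 6378850, plus strand). Only 14 and 8 counts came from the mCDC libraries, against 22 and 45 from the vehicle libraries. Scaled to library size these were 0.530 and 0.365 CPM, against 0.839 and 1.64 CPM. The count of mCDC replicate 2 was below the filter's minimum of 10, so Pdgfd would not have passed without the vehicle libraries. Both mCDC libraries lay below both vehicle libraries, and vehicle replicate 2 was the highest. The log2 fold change was -1.44 (standard error 0.51), and 19.5% of all tested genes were likewise lower in both mCDC libraries. The exact Poisson 95% intervals of mCDC replicate 1 (0.290 to 0.890 CPM) and vehicle replicate 1 (0.526 to 1.27 CPM) overlapped, so that pair of libraries is not told apart by counting alone. Without vehicle replicate 2 the log2 fold change was -0.88 and without mCDC replicate 2 it was -1.22, and Pdgfd was called in neither case. Nor was it called with DESeq2, at -1.45, and it was not fitted where 10 counts were required in every library.

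**Figure D2:**
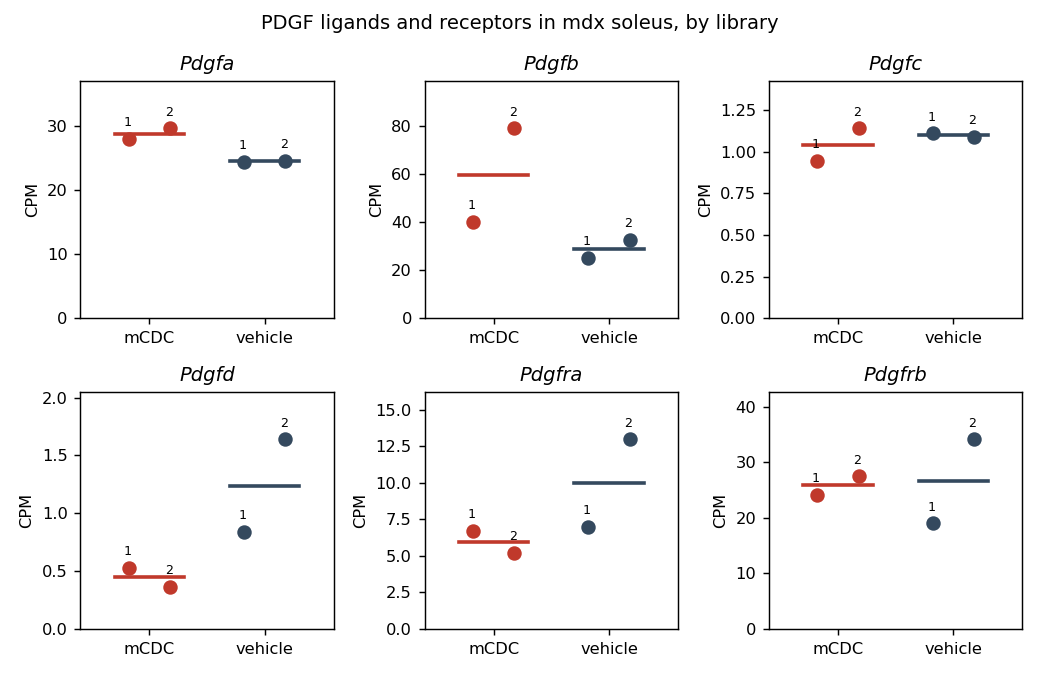
CPM of each member in the 2 mCDC and 2 vehicle muscles, with replicate numbers above the points, a bar at each group mean and a separate linear axis from 0 for each gene. Pdgfb reaches 78.8 CPM in mCDC replicate 2, and Pdgfra, Pdgfrb and Pdgfd each have their highest point in vehicle replicate 2.

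The receptor genes differed in how they compared between the groups. Pdgfra, on chromosome 5 (75152292 to 75198215, plus strand), had 6.70 and 5.21 CPM in mCDC libraries, against 6.98 and 13.0 CPM in the vehicle libraries. The mCDC libraries were below both vehicle libraries, as in 19.5% of all tested genes. However, mCDC replicate 1 and vehicle replicate 1 were within each other's counting intervals, and vehicle replicate 2 stood above the rest. Its log2 fold change was -0.74 (standard error 0.31). Without vehicle replicate 2 it was -0.23 and without mCDC replicate 2 it was -0.57, and Pdgfra was not called in either case. It was also not called at -0.69 with the replicate number as a block, or at -0.57 with the trend of each library with transcript length and GC content removed.

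Pdgfrb, on chromosome 18 (61045150 to 61085061, plus strand), had 24.2 and 27.5 CPM in mCDC libraries, against 19.0 and 34.2 CPM in the vehicle libraries. The vehicle libraries enclosed the mCDC libraries, and the log2 fold change was -0.04 (standard error 0.26). Its direction followed the vehicle library kept, at 0.44 without vehicle replicate 2 and -0.40 without vehicle replicate 1. Per length, Pdgfrb exceeded Pdgfra by 4.54-fold and 6.64-fold in the mCDC libraries, against 3.42-fold and 3.33-fold in the vehicle libraries. With the mean transcript length these were 1.83-fold and 2.67-fold, against 1.38-fold and 1.34-fold. The level of Pdgfb was 3.05 and 5.28 times that of Pdgfrb per length in the mCDC libraries, and 2.43 and 1.76 times in the vehicle libraries. With the mean length they were 5.84 and 10.1 times, against 4.65 and 3.36 times.

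**Figure D3:**
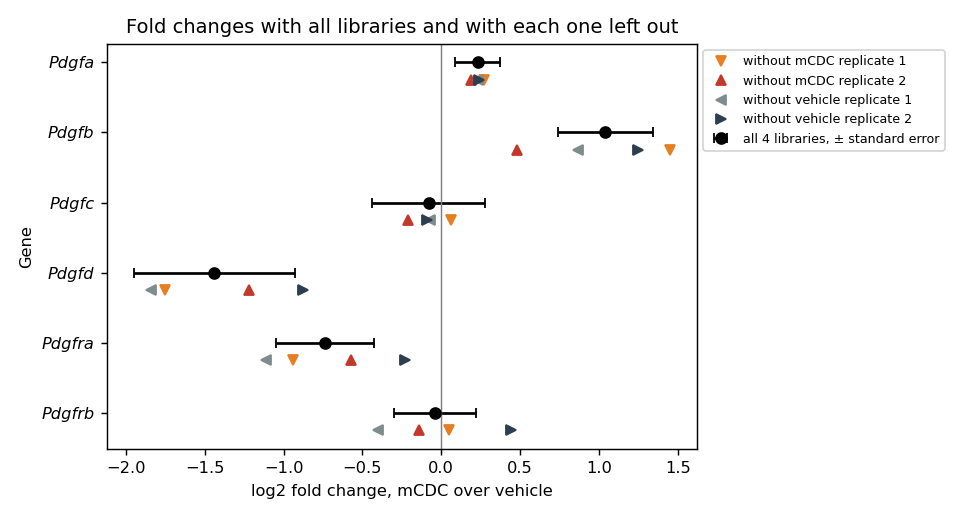
Log2 fold changes of the 6 genes with all 4 libraries (black, with standard errors) and after leaving out 1 library at a time (coloured triangles). Pdgfb, Pdgfd, Pdgfra and Pdgfa keep their side of 0, whereas Pdgfrb runs from -0.40 to 0.44 and Pdgfc from -0.21 to 0.06. Keeping that side follows from groups that do not overlap, so nothing is read from it. Of all tested genes, 19.2% lie higher and 19.5% lower in both mCDC libraries.

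The genes whose profile over the 4 libraries was closest to that of each member were found by the root mean square (RMS) difference of log2 CPM, each gene centred on its own mean. For Pdgfb these were Myog, a myogenic transcription factor, at an RMS difference of 0.066, and Klf5 at 0.101, and only 27 tested genes lay within 0.2. For Pdgfd they were Timp4 at 0.019, Gm1966 at 0.042 and Vsig2 at 0.090, with 30 genes within 0.2. For Pdgfra they were Gbp9 at 0.031, the gap junction gene Gja1 at 0.041 and Myoc at 0.042, with 372 within 0.2. Between members, the closest pairs were Pdgfa with Pdgfc, at 0.17, and Pdgfd with Pdgfra, at 0.30, and the farthest was Pdgfb with Pdgfd, at 1.24. The profiles of Pdgfa, Pdgfc and Pdgfrb were shared by many genes, with 6446, 6932 and 1021 within 0.2. Their nearest were Ubtf, Get4 and Yeats4 for Pdgfa, at 0.001, 0.006 and 0.008. They were Rab8a, Ankrd39 and Senp5 for Pdgfc, at 0.012, 0.013 and 0.014, and Tbx2, Gngt2 and Sertad4 for Pdgfrb, at 0.015, 0.029 and 0.032. With 4 points a profile holds little information, and likeness here is only that of the numbers.

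The levels of the receptors were set beside marker genes of the cells that carry them. In bulk muscle, fewer cells of a type and less RNA per cell cannot be told apart. All 10 skeletal muscle markers were detected, led by Myh7, the slow myosin heavy chain, and skeletal actin Acta1. Together they took from 133885 to 151882 CPM, and with edgeR 0 of the 10 were called and 0 had an unadjusted p under 0.05, as with DESeq2. The 14 fibro-adipogenic progenitor markers, led by gelsolin (Gsn) and decorin (Dcn), summed to 807 and 664 CPM in mCDC libraries, against 761 and 1230 CPM in the vehicle libraries. Gsn alone gave 337 and 243 CPM of these sums, against 334 and 482 CPM, so it weighs heavily in them. All 14 had a log2 fold change below 0, with a median of -0.34 against -0.0094 over all genes, while 12 of the 14 overlapped between the groups and 2 lay lower in both mCDC libraries, as did 19.5% of all tested genes. Called lower, beside 2.74% of all tested genes, were Lum, a small proteoglycan of collagen fibrils (-1.02, standard error 0.29, edgeR adjusted p = 0.626), and Smoc2 (-0.69, standard error 0.25, edgeR adjusted p = 0.685). Without vehicle replicate 2 neither was called, at -0.47 and -0.28, nor was Smoc2 without mCDC replicate 2, at -0.57. Per 1000 CPM of these markers, Pdgfra had 8.31 and 7.85 CPM in mCDC libraries, against 9.18 and 10.5 CPM in the vehicle libraries, a narrower range than that of Pdgfra itself. The markers were thus highest in vehicle replicate 2, as Pdgfra was, and their part in its difference was not tested.

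Endothelial markers, such as VE-cadherin (Cdh5) and Egfl7, summed to 235 and 191 CPM in mCDC libraries, against 193 and 417 CPM in the vehicle libraries, so they too were highest in vehicle replicate 2. All 12 had log2 fold changes below 0, with a median of -0.53, but only 1, Vwf, lay lower in both mCDC libraries, where 19.5% of all tested genes did, and the others overlapped between the groups. Called lower, beside the same 2.74%, were Vwf, the von Willebrand factor gene (-0.90, standard error 0.26, edgeR adjusted p = 0.619), and the VEGF receptor gene Flt1 (-0.86, standard error 0.34, edgeR adjusted p = 0.713). Without vehicle replicate 2 both genes were not called, at -0.55 and -0.17, and Flt1 was not called without mCDC replicate 2 either, at -0.66. Flt1 also lost its call with the replicate block, at -0.76, and after correction for length and GC content, at -0.69. DESeq2 called 3 of the 12 endothelial markers lower, where it called 270 of 18132 genes lower. Pdgfb, which endothelial cells make, took another course. Per 1000 CPM of endothelial markers its level was 171 and 413 CPM in mCDC libraries, against 129 and 78.2 CPM in the vehicle libraries. Its highest level was in mCDC replicate 2, where the sum of endothelial markers was lowest, though close to that of vehicle replicate 1.

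Mural cells, the pericytes and smooth muscle of vessel walls, carry the beta receptor. Their 12 markers summed to 411 and 431 CPM in mCDC libraries, against 368 and 423 CPM in the vehicle libraries, led by Abcc9, which muscle fibers also express, and Acta2. Pdgfrb had 58.8 and 63.7 CPM per 1000 CPM of these markers in the mCDC libraries and 51.6 and 80.9 CPM in the vehicle libraries, overlapping as Pdgfrb did. Of the 12, 1 was called higher and 1 lower, beside 1.26% and 2.74% of all tested genes. The median log2 fold change of the list was 0.04. Cspg4, which encodes the NG2 proteoglycan of pericytes, was called higher (0.63, standard error 0.23, edgeR adjusted p = 0.705), with 61.7 and 105 CPM in mCDC and 51.8 and 56.2 CPM in vehicle libraries. It lost the call with mCDC replicate 2 left out, at 0.19, with vehicle replicate 1 left out, at 0.57, with vehicle replicate 2 left out, at 0.68, and with the replicate block, at 0.58. Rgs5, a pericyte regulator of G-protein signaling, was called lower (-0.60, standard error 0.16, edgeR adjusted p = 0.612), but not without mCDC replicate 2, at -0.54, or after correction for length and GC content, at -0.51, where it fell below 1.5-fold.

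**Figure D4:**
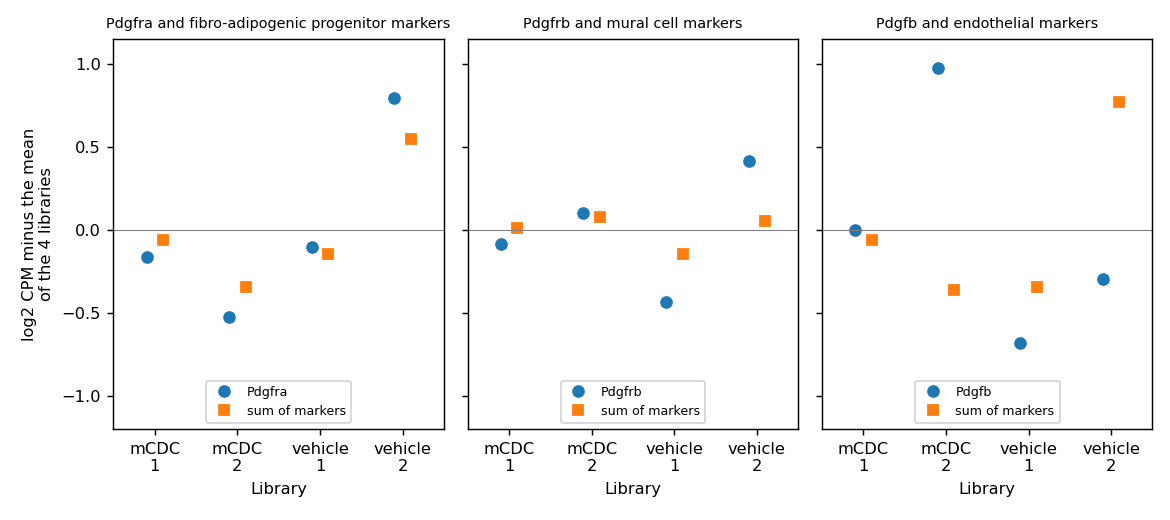
Log2 CPM of Pdgfra, Pdgfrb and Pdgfb (circles) and of the summed markers of the cell type known to express each (squares), by library, each minus its mean over the 4 libraries. Pdgfra and its markers are both highest in vehicle replicate 2, whereas Pdgfb is highest in mCDC replicate 2, where its endothelial markers are lowest.

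Other cell types that can express or answer PDGF were checked in the same way. Macrophage markers, led by Lyz2 and C1qa, summed to 42.6 and 50.2 CPM in mCDC and 36.2 and 62.7 CPM in vehicle libraries. Of the 10, Cd68 was called higher (1.49, standard error 0.54) and Csf1r lower (-0.67, standard error 0.28). Of all tested genes 1.26% were called higher and 2.74% lower. Cd68 had 15.4 CPM in mCDC replicate 2 against at most 4.15 CPM elsewhere, and its groups overlapped, and its log2 fold change without that library was 0.27. With DESeq2 0 of the 10 macrophage markers were called or had an unadjusted p under 0.05. Cd68 was not called either without vehicle replicate 1, at 1.23, or without vehicle replicate 2, at 1.84. Of 6 tendon markers, led by Thbs4 and Scx, 1 was called higher and 3 lower, beside 1.26% and 2.74% of all tested genes. The tendon transcription factor Scx was the higher one (0.86, standard error 0.20), and Tnmd (-1.36, standard error 0.30), Fmod (-0.97, standard error 0.32) and Comp (-0.76, standard error 0.19) were the lower ones. Fmod was not called without mCDC replicate 1 (-0.54) or vehicle replicate 1 (-0.66), nor Comp without vehicle replicate 1 (-0.58). The 7 adipocyte markers, led by Fabp4 and Cebpa, summed to 132 and 135 CPM in mCDC and 152 and 214 CPM in vehicle libraries. Most of that sum was Fabp4, which capillary endothelium also expresses, at 115 and 114 CPM against 124 and 199.9 CPM. Adipoq, Plin1, Cidec and Lep, which are more particular to fat cells, were instead highest in vehicle replicate 1 and lowest in vehicle replicate 2. Adipoq, the adiponectin gene, had 3.33 CPM in each mCDC library, against 5.46 and 1.49 CPM. The 6 Schwann cell markers, led by Pmp22, ran from 59.5 to 81.1 CPM. Both edgeR and DESeq2 called 0 genes of these lists, and by each tool 1 adipocyte and 0 Schwann cell markers had an unadjusted p under 0.05. In edgeR that marker was Fabp4, at a log2 fold change of -0.50.

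Around the receptors, 80 of 82 genes on 4 lists of the PDGF pathway could be tested, of which 6 were called higher and 2 lower, where 1.26% and 2.74% of all tested genes were. The lists were chosen with results of these libraries known, and these counts were not tested against that background. Their median log2 fold change was 0.05, against -0.0094 over all genes, and the lowest of their edgeR adjusted p was 0.527. DESeq2 did not call Pdgfrl, Spry4 or Has2 of these 8. The 37 tested adaptors, kinases and transcription factors at the receptor had 0 called higher and 1 lower by both edgeR and DESeq2, 2 with an unadjusted p under 0.05 by each, and a median that rounded to 0.

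Among 15 tested genes for ligand processing and binding, the 2 with the highest level were Sparc, whose product binds PDGF-B, at a mean of 110 CPM, and Cspg4, described above. The PDGF receptor-like gene Pdgfrl had 2.12 and 2.1 CPM in mCDC and 3.40 and 3.09 CPM in vehicle libraries and was called lower (-0.62, standard error 0.26, edgeR adjusted p = 0.713). It lost that call whichever library was left out, with values from -0.69 to -0.55. The median of the list was -0.07. The proteases of PDGF-C and PDGF-D, Plat, which encodes tissue plasminogen activator, and Plau, which encodes urokinase, overlapped between the groups, with log2 fold changes of 0.21 and -0.23. The matriptase gene St14 had under 10 counts in each library and was not tested.

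At the receptor, Plcg1, the phospholipase C that docks to activated PDGF receptors, had 17.1 and 15.8 CPM in mCDC and 25.4 and 27 CPM in vehicle libraries. It was called lower (-0.67, standard error 0.15, edgeR adjusted p = 0.566) and kept the call with any library left out, between -0.73 and -0.62, but not after correction for length and GC content, at -0.58. The most abundant genes of this list, Akt2 and the phosphatase gene Ptpn11, were at 0.14 and -0.14. The regulatory PI3-kinase subunit gene Pik3r1 had an unadjusted p under 0.05 without reaching 1.5-fold, at -0.46.

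Of the 14 genes that attenuate receptor signaling, 2 sproutys, feedback inhibitors of the ERK pathway, were called higher, beside 1.26% of all tested genes. Spry2 had 21.6 and 25.8 CPM in mCDC and 14.0 and 13.7 CPM in vehicle libraries (0.77, standard error 0.17, edgeR adjusted p = 0.544), and it was called with any library left out. Spry4 had 4.70 and 6.62 CPM against 3.66 and 3.57 CPM (0.64, standard error 0.25, edgeR adjusted p = 0.713). It was called only without mCDC replicate 1, of the 4 libraries, and stood at 0.38 with mCDC replicate 2 left out, and at 0.67 and 0.62 with vehicle replicate 1 or 2 left out. The most abundant genes of the list, Acp1 and Lrig1, were at 0.11 and -0.06, and the median was 0.14.

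The early response list, genes that fibroblasts switch on soon after growth factors are added, had 12 of 14 tested members above 0, a median of 0.45, and 3 called higher, beside 1.26% of all tested genes. The AP-1 gene Fosl1 had 25 and 77 counts in mCDC and 4 and 4 counts in vehicle libraries (3.83, standard error 0.82, edgeR adjusted p = 0.527, DESeq2 adjusted p = 0.0048). Fosl1 was called with any library left out, but it reached the minimum of 10 counts through the mCDC libraries alone and was not tested where 10 counts were required in every library. Has2, a hyaluronan synthase gene, had 13 and 10 counts against 1 and 6 counts (1.83, standard error 0.77, edgeR adjusted p = 0.713). It too passed the filter through the mCDC libraries alone, and it was not called with the replicate block, at 1.87. It was called without vehicle replicate 2, but not without mCDC replicate 1 (1.77), mCDC replicate 2 (1.88) or vehicle replicate 1 (1.11). The most abundant members, Mcl1 and Srf, were at 0.09 and 0.35, and the classical PDGF-induced genes Myc, Fos and Egr1 overlapped between the groups, at 0.29, 0.04 and 0.70.

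**Figure D5:**
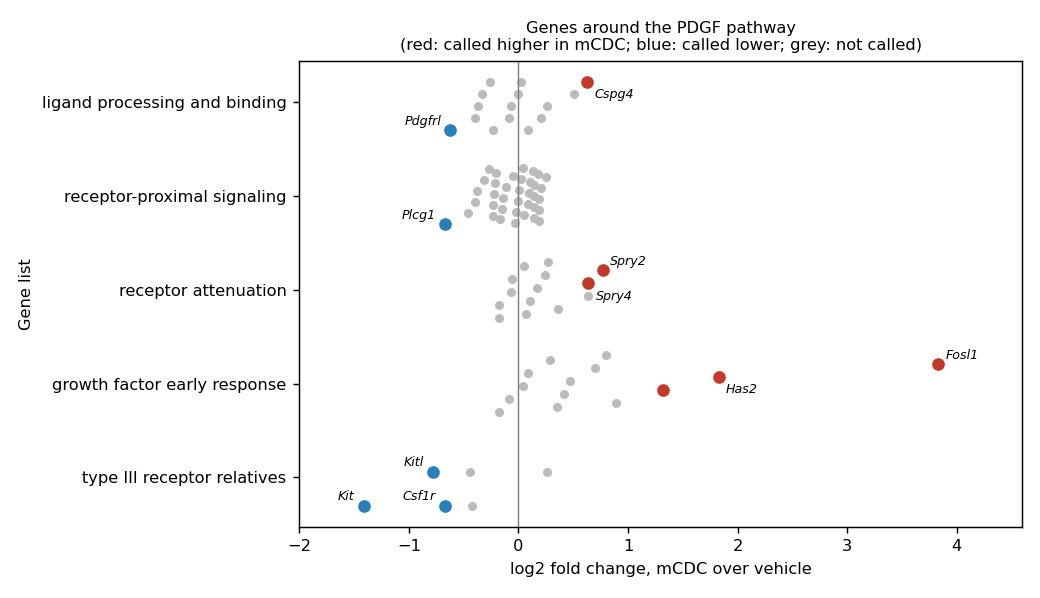
Log2 fold changes of the tested genes on 5 lists, 1 point per gene, spread vertically for legibility. Called genes are in colour, and those described in the text are named: Fosl1, Has2, Spry2, Spry4 and Cspg4 lie to the right, and Kit, Kitl, Csf1r, Plcg1 and Pdgfrl to the left.

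The closest relatives of the PDGF receptors are the other type III receptor tyrosine kinases. Of 6 tested relatives and their ligands, 3 were called lower by edgeR, beside 2.74% of all tested genes, and 1, Kitl, by DESeq2, with a median log2 fold change of -0.55. Kit, the stem cell factor receptor gene, had 0.379 and 0.502 CPM in mCDC and 0.839 and 1.49 CPM in vehicle libraries (-1.41, standard error 0.49, edgeR adjusted p = 0.685). Its ligand gene Kitl had 7.73 and 7.31 CPM against 11.3 and 14.5 CPM (-0.78, standard error 0.20, edgeR adjusted p = 0.611) and was called with any library left out. Kit was not called without mCDC replicate 1 (-1.21) or without vehicle replicate 2 (-0.94). Csf1r, the macrophage colony-stimulating factor receptor gene, had 5.11 and 3.93 CPM against 5.57 and 8.84 CPM (-0.67, standard error 0.28, edgeR adjusted p = 0.713). Without vehicle replicate 2 it was at -0.30 and without mCDC replicate 2 at -0.50, and not called. Nor was it called with the replicate block, at -0.64, or without a filter on low counts, where its log2 fold change was still -0.67 and the unadjusted p from edgeR was 0.0502. Csf1r and Pdgfra each had their highest level in vehicle replicate 2.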

How the data were processed

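Soleus RNA from 2 mCDC and 2 vehicle mdx mice was measured by RNA-seq. The authors aligned reads sequenced from one end to UCSC transcripts and deposited expected counts per gene, without normalization. The submitters' processing notes list Bowtie2 2.1.0, RSEM 1.2.15 and mm10. The library kit differs between the sample records (stranded) and the methods, and the strand setting of the counting is not given in the sources used here. Exons of Pdgfa, Pdgfc and Pdgfra overlap other genes on the opposite strand or a microRNA gene. All 24 expected counts of the members were whole numbers.

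Groups came from the sample titles. Nothing in the records says that replicates were separate cultures or litters beyond their numbering, so p-values refer to these muscles only. Expected counts were rounded and fitted with edgeR 4.0.16 in R 4.3.3 (filterByExpr, TMM scaling, quasi-likelihood F-test with legacy = FALSE, all 4 libraries), and p-values were adjusted by Benjamini-Hochberg over 13652 genes. A call needed over 1.5-fold and an unadjusted p under 0.05, the study's own thresholds. Standard errors are the absolute log2 fold change over the square root of F. The fit shares information on variability across genes, so standard errors and p-values do not rest on a gene's own spread alone. Log2 CPM used a prior count of 2. An exact permutation test of 2 against 2 cannot go below p = 0.333. Counting intervals are exact Poisson and cover counting error only. Transcript lengths came from GENCODE M21, which paired 22750 of 24054 symbols by name and 950 by an older name. The procedure was tested on simulated data in which all genes varied alike between libraries, for recovery of known changes and not for false calls.

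The members and gene lists were chosen with earlier results of these data known. The genes named are the 6 members, every called gene of each list, the 2 most abundant genes of each pathway and marker list, and the 3 nearest profiles per member, apart from 3 genes that are not reported here; others (Plat, Plau, St14, Pik3r1, Myc, Fos, Egr1, Fabp4 for its values, Adipoq, Plin1, Cidec, Lep) were chosen after their values were seen. Alternatives were DESeq2 1.42.0, edgeR's legacy form, RLE scaling, other filters, the replicate block, correction for transcript length and GC content, and omission of single libraries.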

Additional observations from a re-analysis of the deposited data

How the results depend on the processing

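With DESeq2, edgeR's legacy form, RLE scaling, other filters on low counts, the replicate block or the length and GC trend removed, the log2 fold changes of the 6 members moved by less than the spread between replicates. Pdgfrb, close to 0 throughout, changed sign with the block (0.01) and with the trend removed (0.06). Pdgfd was not fitted where 10 counts were required in every library, and it was not called with DESeq2. Pdgfra was not called without a filter on low counts, with the replicate block, or with the length and GC trend removed, while Pdgfb was called in all 7 of these settings. Leaving out each library in turn, where a lone library is assumed to vary like the other group, gave log2 fold changes of 0.19 to 0.27 for Pdgfa, 0.48 to 1.45 for Pdgfb, -0.21 to 0.06 for Pdgfc, -1.84 to -0.88 for Pdgfd, -1.11 to -0.23 for Pdgfra and -0.40 to 0.44 for Pdgfrb. Over all genes it gave 112 to 397 called higher and 236 to 834 called lower, where all libraries gave 172 and 374, and 3 to 8 pathway genes called higher and 1 to 2 called lower. The pathway genes called lower numbered 1 in place of 2 with DESeq2, the legacy form, the replicate block and the length and GC trend removed. The cause was not tested.

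The replicate numbers share no stated litter or day, and deviations of same-numbered libraries correlated at -0.04. With the replicate number as a block, 172 genes were called higher and 308 lower. Dividing by the mean rather than the longest transcript length gave 24.2 CPM per kb for Pdgfa, 28.7 for Pdgfb, 0.364 for Pdgfc and 2.90 for Pdgfra, with Pdgfrb and Pdgfd within their spread. Between groups of 2 muscles, depth limited Pdgfc and Pdgfd, with at most 45 counts in a library.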
